A study of Mus musculus with 14 samples.

Results

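The nuclear-encoded subunits of the oxidative phosphorylation complexes were described in supporting cells (SCs) sorted from cochlear explants of neonatal mice. Genes were taken by name from both count tables (Nduf genes of the a, b, c, s and v series, the Sdh genes a to d, Uqcr, Cox4 to Cox8 and Atp5) and were kept at a mean of 5 or more RPM (reads per 1000000 counted reads) over the 14 libraries. Of 35976 gene symbols, 85 matched the names and 76 reached the minimum: 36 of complex I, 4 of complex II, 8 of complex III, 13 of complex IV and 15 of complex V. These 76 genes are called the members below. Explants came from Lfng-EGFP mice, whose EGFP transgene is driven by Lfng regulatory sequence, so the sorted cells were those with an active reporter and not a single SC type. They were held for 24 h in 2 µM compound E (CompE), a γ-secretase inhibitor that stops the cleavage that releases the active part of Notch receptors, or in an equal volume of DMSO. The P0 groups (labelled P0, from animals of P0 to P1) held 4 CompE and 4 DMSO libraries in 3 batches, and the P6 groups held 3 of each in 3 other batches, so that age and batch cannot be told apart. Organs were pooled for each library, and the medium, the transgene and the trypsin dissociation were common to the 4 groups.

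Oxidative phosphorylation couples the transfer of electrons from nutrients to oxygen with the synthesis of ATP in the inner mitochondrial membrane. Complex I takes electrons from NADH and complex II from succinate, both pass them to ubiquinone, complex III hands them to cytochrome c, complex IV reduces oxygen, and complex V, the ATP synthase, uses the proton gradient that complexes I, III and IV build. Most subunits are encoded in the nucleus and the rest in mitochondrial DNA (mtDNA). In the organ of Corti, SCs lie between the mechanosensory hair cells, and neonatal SCs can take on hair cell features when Notch signalling is blocked.

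Libraries held between 19415066 and 44430063 counted reads, and the members made up 0.753% to 1.19% of them. SC markers such as Sox2, Prox1 and Jag1 were present in every group. The 10 listed SC markers summed to 4841 RPM or more in each library. Single markers differed with age in both directions. In DMSO libraries Prox1 was at 348 to 699 RPM at P0 and 32.8 to 212 RPM at P6. Gjb6 was at 209 to 306 RPM at P0 and 775 to 1146 RPM at P6. At P0 their sum was 6279 to 6597 RPM with CompE and 7172 to 12113 RPM with DMSO, ranges that do not overlap, and 5 of the 10 were lower with CompE at an adjusted p of 0.05 in edgeR. The 10 hair cell markers were also present, at 682 to 1571 RPM in P0 DMSO libraries and 1343 to 2380 RPM in P0 CompE libraries. Mesenchyme markers reached 3309 and 3950 RPM in the highest CompE and DMSO libraries at P6, against at most 1330 RPM at P0. In bulk libraries, fewer cells of a type and less RNA per cell cannot be told apart. The P0 CompE library of replicate 1 had the lowest summed level of the members among the 14 libraries, at 7533 RPM, and results that rest on it are given with and without it.

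Several members share stretches of sequence with other annotated genes, and the shared part is set beside the age comparison below. For each gene, the share of its transcript's 75-base words (all stretches of 75 bases, the number of cycles of the sequencing kit) that also occur in an annotated transcript of another gene was computed from GENCODE vM21 on GRCm38. None was shared for 51 of the 76 members, any for 25 and more than 10% for 15. The coding sequences of Cox7c and Ndufa1 are given as examples of members that later differed with age, with and without shared words. Cox7c is a small subunit of complex IV on chromosome 13 (chr13:86044816-86046904, minus strand). Ndufa1 is an accessory subunit of complex I on chromosome X (chrX:37187588-37191163, minus strand). Capitals mark bases inside a shared 75-base word.
Cox7c: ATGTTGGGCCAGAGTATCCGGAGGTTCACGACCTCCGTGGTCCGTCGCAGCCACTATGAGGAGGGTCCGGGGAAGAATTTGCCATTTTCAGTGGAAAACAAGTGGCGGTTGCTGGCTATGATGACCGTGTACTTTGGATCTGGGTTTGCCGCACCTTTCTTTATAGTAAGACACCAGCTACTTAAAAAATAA
Ndufa1: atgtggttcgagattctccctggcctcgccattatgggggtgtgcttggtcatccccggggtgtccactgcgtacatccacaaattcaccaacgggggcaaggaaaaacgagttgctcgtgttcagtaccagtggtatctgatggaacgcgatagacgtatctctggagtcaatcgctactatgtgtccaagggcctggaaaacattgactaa
All 192 coding bases of Cox7c lay in shared words, with the annotated genes Gm10012 and Gm12338 as the partners, and none of the 213 coding bases of Ndufa1 did. A read that lies wholly within the capitals cannot be placed on Cox7c by its sequence alone.

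The members fell into a wide range of levels, and the catalytic part of the ATP synthase led. In summed RPM over each complex, complex V was highest, followed by complexes I, IV, III and II in P0 DMSO libraries (means of 3115, 2763, 1331, 934 and 753 RPM, n = 4). Per transcript length, as RPKM (RPM per 1000 bases of transcript) averaged over the 14 libraries, the highest were Atp5b, the catalytic β subunit of complex V, at 568, Ndufa4, first assigned to complex I and since found in complex IV, at 373, Cox4i1, the general isoform of complex IV subunit 4, at 329, Atp5g3, one of the genes for the membrane ring subunit c, at 324, and Cox6a1 at 320. Median RPKM rose from 85.2 in complex I to 124 in II, 130 in III, 169 in IV and 170 in V. At the low end stood Ndufs5 at 17.0 and Ndufb4 at 18.2 RPKM, both with over 30% of their words shared, and Atp5s and Atp5sl at 18.3 and 8.90 RPKM. The last pair match the names but are now called Dmac2l and Dmac2 and are not core subunits of the enzyme.

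**Figure D1:**
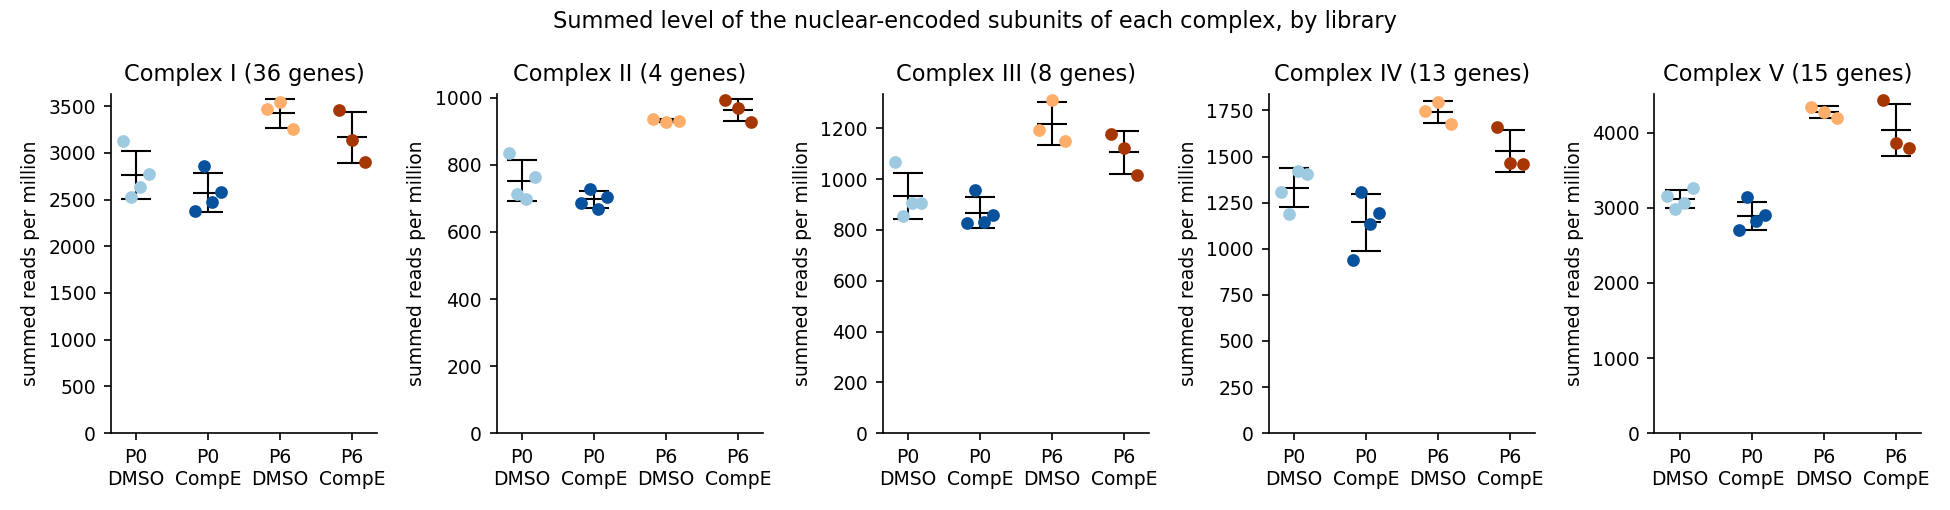
Summed RPM (vertical axis, from 0) of the nuclear-encoded subunits of each complex in the 4 groups; points are libraries, and bars give the mean ± SD (n = 4 at P0, n = 3 at P6). In each complex every P6 library lies above every P0 library of the same treatment, and CompE and DMSO libraries of one age overlap except for complex IV at P6.

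Where mammals have tissue forms of a subunit, the general form had the higher mean, with a clear second form at subunits 4 and 7a of complex IV. Per length over the 14 libraries, Cox4i2 was at 147 RPKM beside 329 for Cox4i1, and Cox7a1 at 94.6 beside 169 for Cox7a2. The muscle and heart forms Cox6a2 and Cox8b averaged 0.0811 and 0.116 RPM against 183 for Cox6a1 and 154 for Cox8a, and the testis form Cox6b2 averaged 3.01 RPM against 136 for Cox6b1. Cox7a1, the heart and muscle form of subunit 7a, was present at 37.2 RPM beside 112 for Cox7a2. The 9 names under the minimum were Cox6a2, Cox8b, Cox6b2, Cox7b2, Cox8c, the pseudogenes Atp5c1-ps and Uqcrh-ps1, and Atp5g2 and Atp5l, which are general ATP synthase genes. Atp5g2 averaged 2.64 RPM with 86.9% of its words shared, and Atp5l averaged 1.83 RPM with 63.4% shared. The members nearest the minimum were Ndufs5 at 8.90 and Ndufb4 at 17.7 RPM, and the nearest name below it was Cox6b2.

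The first question was whether blocking Notch for 24 h at P0 changed these genes. Cox4i2 had the largest difference, a 2.95-fold lower level with CompE, while the other members had log2 fold changes between -0.41 and 0.30. Cox4i2 (chr2:152754173-152765037, plus strand) encodes the alternative form of complex IV subunit 4, which is known for its response to low oxygen, for an oxygen-responsive promoter element bound by RBPJ, the DNA-binding partner of Notch, and for its expression in pericytes of several tissues. It was counted at 23.7, 82.8, 60.2 and 67.8 RPM in the CompE libraries of replicates 1 to 4 and at 145, 145, 204 and 185 RPM in the DMSO libraries. Every CompE library was lower than every DMSO library, with means of 58.6 and 170 RPM. The exact two-sided permutation p was 0.0286, the smallest that 4 against 4 libraries can give. Cox4i2 was picked as the largest difference in the same libraries, so this p is not separate support. In edgeR's quasi-likelihood test over all 15937 genes tested, the log2 fold change was -1.56 ± 0.34 (SE) with an adjusted p of 0.0346.

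The threshold for a call was an adjusted p of 0.01 and 2-fold, which Cox4i2 missed in the fit without pairing, so that 0 of 76 members were called where 1.22% of all genes were, in either direction. At an unadjusted p under 0.05, 8 of 76 members and 2135 of 15937 genes passed, and DESeq2 called 1 member, Cox4i2, and 425 genes. With the replicate number as a block (CompE and DMSO libraries of one number shared a batch and deviated together), Cox4i2 had a log2 fold change of -1.69 ± 0.25 and an adjusted p of 0.00572 and was the 1 member called, where 1.51% of all genes were called lower. With the looser rule of an adjusted p of 0.05 and no limit on the fold, Cox4i2 was the 1 member lower without the block, where 2.59% of all genes were. The block added Ndufs8, an iron-sulphur subunit of complex I, at -0.41 ± 0.10 with an adjusted p of 0.0447. That made 2 of 76 members lower, where 723 of 15937 genes were. Without the CompE library of replicate 1, the log2 fold change of Cox4i2 was -1.29 and it was called.

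Cox4i1, the general form, was at 188 to 257 RPM with CompE and 213 to 242 RPM with DMSO at P0, and these ranges overlap. Its log2 fold change was -0.10 ± 0.13 with an adjusted p of 0.856. The share of Cox4i2 in the per-length level of both forms was 20.6% ± 6.17 (SD, n = 4) with CompE and 42.8% ± 3.20 (n = 4) with DMSO at P0, and 26.2% ± 6.38 (n = 3) and 27.4% ± 2.14 (n = 3) at P6.

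**Figure D2:**
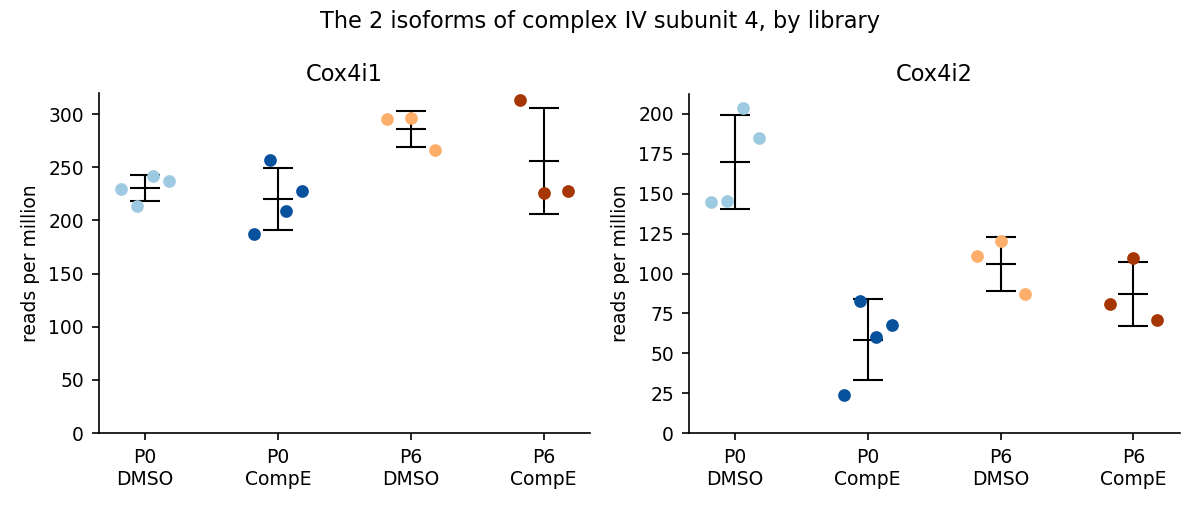
RPM (vertical axes, from 0) of Cox4i1 and Cox4i2 in each library of the 4 groups, with mean ± SD bars (n = 4 at P0, n = 3 at P6). Cox4i2 at P0 lies at 23.7 to 82.8 RPM with CompE and at 145 to 204 RPM with DMSO. The CompE and DMSO ranges overlap for Cox4i2 at P6 and for Cox4i1 at each age.

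At P6 Cox4i2 was at 81.1, 110 and 71.1 RPM with CompE and 111, 120 and 87.4 RPM with DMSO, ranges that overlap. The log2 fold change was -0.27 ± 0.24 with an adjusted p of 1.00. The difference between the ages was 1.31 ± 0.48 on the log2 scale with an adjusted p of 0.896 in the fit over 14 libraries (0.149 with the replicate block), so the effects at P0 and P6 were not shown to differ. Of 8 pericyte markers, chosen after the value of Cox4i2 was seen, Kcnj8, Rgs5 and Higd1b were at most 0.699, 0.810 and 0.0986 RPM in the P0 libraries. Abcc9, Vtn and Cspg4 reached at most 7.07, 0.663 and 1.94 RPM there. Pdgfrb and Notch3, which are not confined to pericytes, were at 162 to 291 and 100 to 271 RPM with DMSO and at 23.9 to 56.0 and 59.3 to 94.9 RPM with CompE. The 8 markers summed to 86.1 to 150 RPM with CompE and to 265 to 572 RPM with DMSO. The sum of the SC markers was also lower with CompE at P0, though not every SC marker was, as given above. The part of either list in the Cox4i2 result was not tested. Ndufa4l2, a paralogue of Ndufa4 that also responds to low oxygen and is outside the name rule, had a log2 fold change of -1.47 ± 0.38 with an adjusted p of 0.0711.

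The other members had small differences at P0, mostly below 0. Of the 76 members, 70 had a negative log2 fold change, where 48.9% of all genes did, and the median was -0.14 against 0.01 for all genes. By complex the medians were -0.15 (I), -0.16 (II), -0.12 (III), -0.12 (IV) and -0.14 (V). Apart from Cox4i2, the lowest values were those of Ndufs8 at -0.41, Uqcrc2, a core protein of complex III, at -0.38, Atp5o, the stalk subunit of complex V, at -0.31 and Sdhb, the iron-sulphur subunit of complex II, at -0.30. The highest was Atp5sl at 0.30 with an adjusted p of 0.354. In RPM, 4 members, Ndufs8, Uqcrc2, Cox5a and Cox4i2, had no overlap between groups with CompE lower, where 4.76% of all genes did.

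The replicates did not share the size of this shift. The median log2 ratio of the members within pairs, on TMM-scaled values, was -0.38, 0.14, -0.19 and -0.13 in replicates 1 to 4, so that in replicate 2 the members were on balance higher with CompE. The SD over these 4 medians was 0.22, larger in size than the median over members. Without the CompE library of replicate 1 the median over members was -0.08, and without both libraries of replicate 1 it was -0.06. Without the CompE library of replicate 2 it was -0.20, and without both libraries of replicate 2 it was -0.22. In the same comparison the 80 tested genes of the cytosolic ribosome had a median of -0.08 and the 77 of the mitochondrial ribosome -0.05, and over all genes the median was -0.08 for transcripts of up to 600 bases and 0.02 for those over 2000 bases. The members' transcripts had a median length of 760.5 bases, and the part of transcript length in the shift was not tested.

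**Figure D3:**
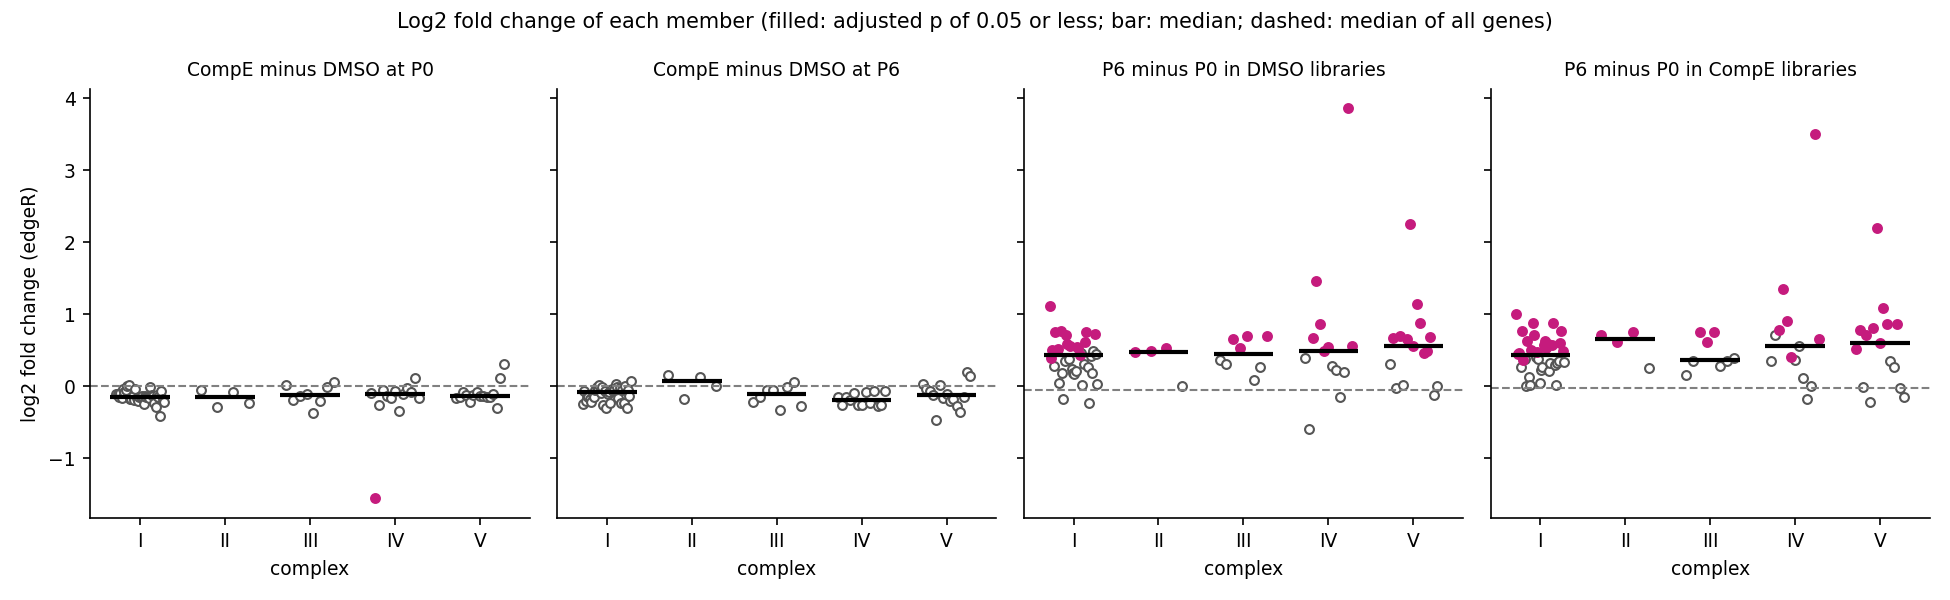
Log2 fold change from edgeR (vertical axis) of each of the 76 members by complex (horizontal axis) in the 4 comparisons; filled points have an adjusted p of 0.05 or less, short bars are medians of a complex and dashed lines are medians of all genes tested. Cox4i2 is the single filled point in the comparisons of CompE with DMSO, and 40 points are filled in each comparison of ages, all above 0.

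At P6, edgeR called 0 of 76 members with CompE, as it called 0 of 15322 genes (0%). At an unadjusted p under 0.05, 0 members and 289 genes passed, and DESeq2 called 0 members and 11 genes. In simulated counts, log2 changes of 1.5 in genes drawn from all those tested were recovered in 20.5% at P6 against 62% at P0. The recovery for genes with the levels and spread of the members was not simulated. The members had a median log2 fold change of -0.11 against 0.00 for all genes, and 65 of 76 were negative. Complex IV had the lowest median, at -0.19, with 0 of 13 members positive, and complex II the highest, at 0.07, with 3 of 4 positive. The largest decrease in value was that of Atp5e, the ε subunit of complex V, at -0.47, and the largest increase that of Atp5s at 0.19, both with an adjusted p of 1.00. In RPM, 15 members had no overlap between groups with CompE lower, where 4.14% of all genes did, among them Cox5a, Cox5b, Cox6b1, Cox7a2 and Cox7b of complex IV. When RPM was divided by the TMM factor, 6 members had no overlap with CompE lower and 1 with CompE higher. The share of all genes was not computed at that scaling, so these counts are not read as a result about the members. Pair medians were -0.00, -0.19 and -0.16 in replicates 1 to 3. The median over members was -0.05 without the CompE library of replicate 3 and -0.18 without that of replicate 1.

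The difference in the CompE response between ages was tested for every member, and edgeR called 0 of 76, as it called 0 of 17090 genes (0%). Cox4i2, the 1 member, and 811 genes had an unadjusted p under 0.05, and DESeq2 called 0 members and 34 genes. The median over members was 0.05, against 0.02 for all genes.

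The larger differences lay between the ages. At P6 the members were higher than at P0 in DMSO libraries, by a median log2 fold change of 0.47 against -0.05 for all genes, with 68 of 76 positive where 47.0% of all genes were. Under the looser rule (adjusted p of 0.05, any fold), 40 members were higher and 0 lower, where 11.8% of all genes were higher. At the stricter threshold of 0.01 and 2-fold, 5 members were called, all higher at P6, where 3.74% of all genes were called higher. In RPM, 43 members had every P6 library above every P0 library, where 12.4% of all genes did. Only Cox4i2 had every P6 library below, where 3204 of 17090 genes did. The summed level of all members was 11580 ± 339 RPM (SD, n = 3) at P6 and 8896 ± 526 RPM (n = 4) at P0. With scaling by library totals alone, the median was 0.39 over members and -0.12 over all genes.

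The CompE libraries are other libraries from the same batches, so this comparison repeats the same contrast of batches. The median over members was 0.47 against -0.03 for all genes, with 70 of 76 positive, and 40 members were higher at an adjusted p of 0.05 where 12% of all genes were. At 0.01 and 2-fold, 4 members were called higher, where 3.54% of all genes were, and 37 members had no overlap with P6 higher, where 13.2% of all genes did. Sums were 10795 ± 833 RPM (SD, n = 3) at P6 and 8175 ± 618 RPM (n = 4) at P0. P6 libraries came from batches that held no P0 library, and marginal cell markers were higher in them. Mesenchyme markers ranged from 895 to 3950 RPM in P6 DMSO libraries, against 907 to 1069 RPM at P0, and these ranges overlap. The marginal cell markers summed to 1376 to 2399 RPM in DMSO libraries at P6 and 293 to 534 RPM at P0. Of the 10 SC markers, 3 were called lower and 2 higher at P6 in DMSO libraries. In CompE libraries 4 were called lower and 3 higher. The part of these marker lists in the result was not tested, and neither was that of a batch. Without both P6 libraries of replicate 3, in which the mesenchyme markers were highest, 5 members were called in each comparison.

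Members of all 5 complexes were among those higher at P6, and Ndufv1, Ndufs3, Uqcrc1, Uqcrfs1, Atp5c1 and Atp5a1 are named below for their roles, with their values known. In DMSO libraries the medians were 0.43 in complex I, where 16 of 36 members were higher at an adjusted p of 0.05, 0.48 in complex II with 3 of 4, 0.45 in complex III with 4 of 8, 0.48 in complex IV with 7 of 13 and 0.56 in complex V with 10 of 15. In complex I the higher members included Ndufv1, the flavoprotein that binds NADH, at 0.73 ± 0.13 (SE) with an adjusted p of 0.00157, and Ndufs3 at 0.75. In complex II, Sdha, the flavoprotein that oxidises succinate, rose by 0.48 and Sdhc, a membrane anchor, by 0.53, while the other anchor, Sdhd, was at -0.00 with an adjusted p of 0.984. In complex III, Uqcrc1 and Uqcrc2, the core proteins, rose by 0.53 and 0.70, while Uqcrfs1, the Rieske iron-sulphur protein, was at 0.08 with an adjusted p of 0.72. In complex V, Atp5b rose by 0.66 to 1346 to 1421 RPM, while Atp5c1, the γ subunit of the rotor, was at -0.03 with an adjusted p of 0.944, and Atp5a1, the α subunit that pairs with Atp5b, was at 0.30 with an adjusted p of 0.0681. Members of one complex therefore did not all move by the same amount in the values, and differences between members were not tested. In DMSO libraries Cox4i2 had the lowest value, -0.60 with an adjusted p of 0.227. In CompE libraries it was at 0.71 with an adjusted p of 0.149, and the lowest was Atp5e at -0.22 with an adjusted p of 0.423.

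The 5 members called with age were Cox7c, Atp5g1, Cox5b, Atp5h and Ndufa1. Cox7c was counted at 5.71, 4.53, 5.33 and 5.13 RPM in P0 DMSO libraries and at 73.5, 78.1 and 61.0 RPM in P6 DMSO libraries, a log2 fold change of 3.85 ± 0.17 with an adjusted p of 1.35e-08. In CompE libraries it was at 5.04 to 6.34 RPM at P0 and at 54.1 to 67.0 RPM at P6. The groups of the different ages are thus far apart under both treatments. Atp5g1, another gene for the ring subunit c, was at 12.4 to 19.4 RPM at P0 and 58.5 to 72.8 RPM at P6 in DMSO libraries, a log2 fold change of 2.26 ± 0.16. Atp5g3, which encodes the same mature protein, rose by 0.56 ± 0.11 with an adjusted p of 0.00326, from 198 to 219 RPM at P0 to 272 to 302 RPM at P6. Cox5b, a zinc-binding subunit of complex IV, rose by 1.46 ± 0.13 and Atp5h, the stalk subunit d of complex V, by 1.13 ± 0.15. Ndufa1 was at 59.1 to 64.4 RPM at P0 and 117 to 134 RPM at P6 with DMSO, a log2 fold change of 1.12 ± 0.11. In CompE libraries the values were 3.50, 2.20, 1.34 and 1.09 for Cox7c, Atp5g1, Cox5b and Atp5h, all called, and 1.00 for Ndufa1, just under 2-fold. An exact permutation test of 3 against 4 libraries cannot go below 0.0571, which each of the 5 reached in DMSO libraries. The 5 were picked by edgeR in the same libraries, so this p is not separate support.

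**Figure D4:**
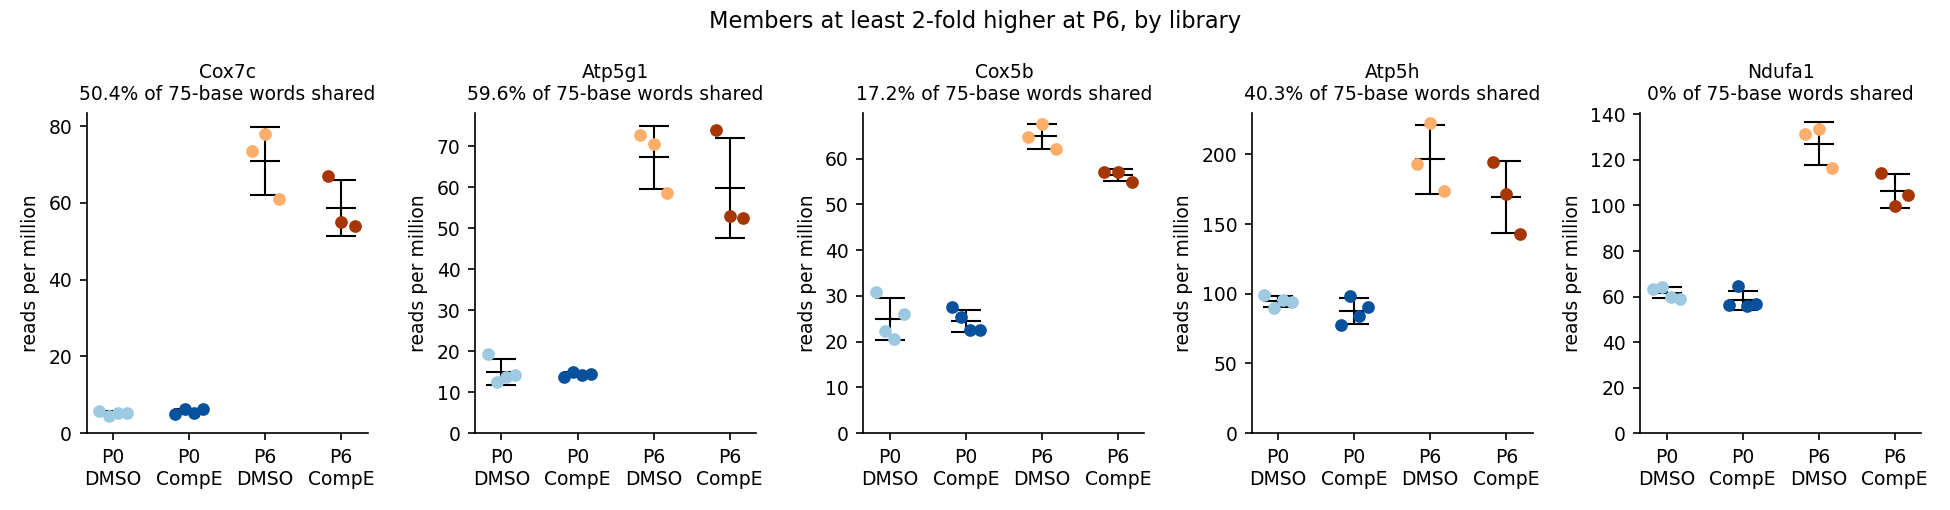
RPM (vertical axes, from 0) of the 5 members called higher at P6, by library and group, with mean ± SD bars (n = 4 at P0, n = 3 at P6); the panel titles give the share of 75-base words found in another gene. P6 libraries lie above P0 libraries in all 5, and Cox7c moves from 4.53 to 6.34 RPM to 54.1 to 78.1 RPM.

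Of these 5, 4 share much of their sequence with other annotated genes, and Ndufa1 shares none. The shared part was 59.6% for Atp5g1 (mainly with Gm10039), 50.4% for Cox7c (Gm10012 and Gm12338, as printed above), 40.3% for Atp5h (Gm10250) and 17.2% for Cox5b (Gm11273). Among the 51 members with no shared word, 1 was called in DMSO libraries and 0 in CompE libraries, against 4 and 4 of the 15 with more than 10% shared. Over all tested genes with a value (83.3% of them), 3.57% of those with no shared word were called higher in DMSO libraries and 11.7% of those with more than 10%. In DMSO libraries the median was 0.44 over the 51 members with no shared word and -0.02 over all 11571 such genes. At an adjusted p of 0.05, 24 of these members were higher, where 12.7% of such genes were. The cytosolic ribosome, in which 78 of 82 annotated genes share words, had 35 of 81 tested genes called higher and 0 lower in DMSO libraries, up to a log2 fold change of 6.01 for Rps29. How reads that match several genes were treated is not given in the sources used here, and whether it differed between the tables of the 2 ages was not tested. Nor was the part of shared sequence in these 5 results.

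**Figure D5:**
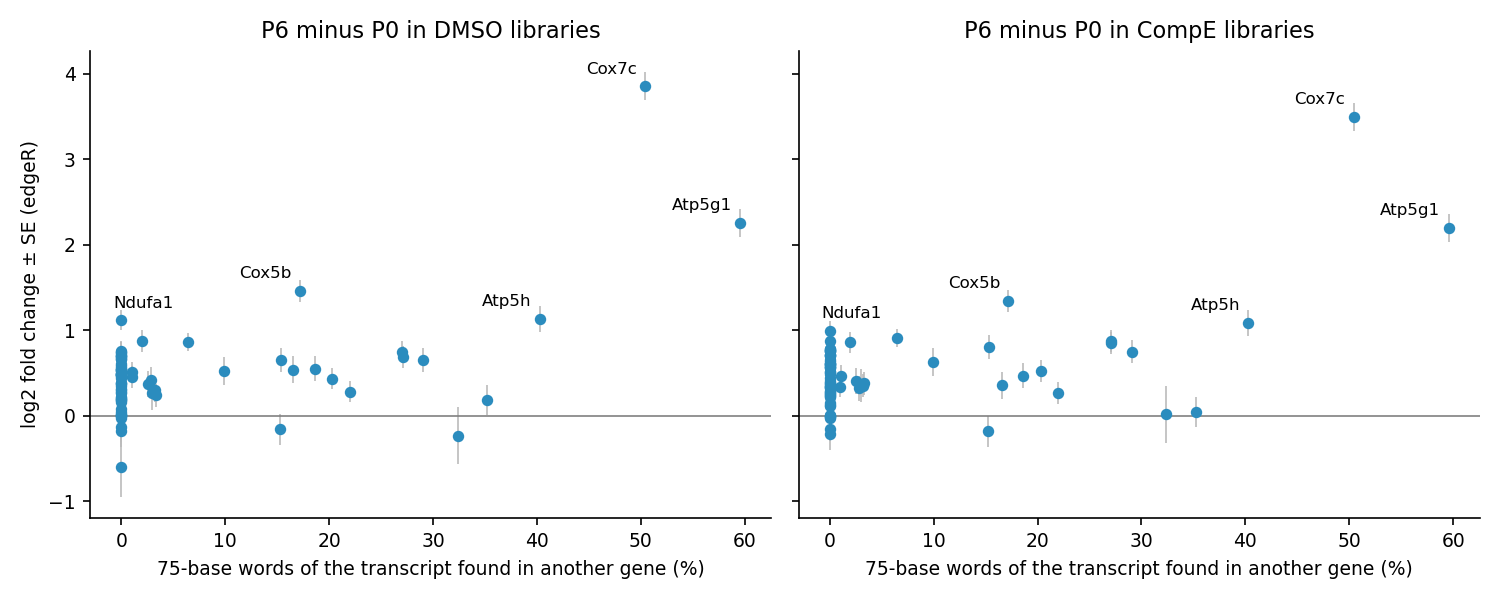
Log2 fold change ± SE from edgeR (vertical axis) of each member in the 2 age comparisons against the percentage of its transcript's 75-base words found in another annotated gene (horizontal axis). The 2 highest points, Cox7c and Atp5g1, have 50.4% and 59.6% of words shared, while the members at 0% lie between -0.60 and 1.12 in DMSO libraries.

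Over all genes the median age difference in DMSO libraries went from 0.33 for transcripts of up to 600 bases to -0.05 for those over 2000, and for the members it was 0.49 and 0.35 in the same classes (22 and 6 genes). Restricted to genes with no shared word, transcripts between 1000 and 2000 bases gave 0.46 for 18 members and 0.09 for all 2496 genes.

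Promoters of the members were compared with those of all genes, not only those tested here. A link of these motifs to the age difference or to the level of a gene was not tested. RefSeq promoters on GRCm38.p6, 300 bases around the start of a gene, were at hand for 61 of the 76 members and were searched on both strands. The letters GCGCANGCG, a form of the site of NRF1, an activator of respiratory genes, were in 18 members (29.5%) and in 7.03% of all 27025 genes. CCGGAAG, a form of the site of ETS factors such as GABP, was in 15 members (24.6%) and 9.93% of genes, and AAGATGGC, a form of the YY1 site, in 9 members (14.8%) and 3.19%. GGGCGG, the Sp1 core, was in 37.7% of members and 38.2% of genes, and TATAAA in 6.56% and 15.7%. ETS and YY1 matches did not overlap in any member. At least 1 of the first 3 motifs was in 35 of the 61 members, against 17.8% of genes. A match is a description of the letters and not a bound site. Among the 5 members called with age, Atp5h held an NRF1 and an ETS match, Ndufa1 a Sp1 core and Cox7c, Atp5g1 and Cox5b none of the 5. The 250 bases before the start in the promoter entry are given for Atp5h (chr11:115419920-115420169, minus strand) and Ndufa1 (chrX:37191239-37191488, minus strand), with matches in capitals. The first has and the second lacks the sites common in this family. In GENCODE the genes begin at chr11:115419962 and chrX:37191163. The Atp5h stretch thus runs into the annotated gene, with the ETS match inside it, and the Ndufa1 stretch ends before the gene.
Atp5h promoter: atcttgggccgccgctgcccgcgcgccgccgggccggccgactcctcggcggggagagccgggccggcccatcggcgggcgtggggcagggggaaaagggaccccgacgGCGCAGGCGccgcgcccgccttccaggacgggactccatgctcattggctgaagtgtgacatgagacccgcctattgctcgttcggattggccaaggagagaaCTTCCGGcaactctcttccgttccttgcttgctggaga
Ndufa1 promoter: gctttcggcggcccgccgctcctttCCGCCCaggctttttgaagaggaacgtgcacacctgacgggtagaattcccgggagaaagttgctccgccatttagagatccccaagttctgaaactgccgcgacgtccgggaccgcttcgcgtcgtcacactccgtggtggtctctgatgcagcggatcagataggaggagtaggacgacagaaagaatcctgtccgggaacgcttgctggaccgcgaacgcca
In Atp5h the first run of capitals is the NRF1 form and the second is the ETS form on the other strand, and in Ndufa1 the capitals are the Sp1 core on the other strand.

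Lists of related genes differed in their values with age in DMSO libraries. Of 46 tested assembly factors, which help to build the complexes but are not part of them, 0 were called, 1 was higher and 1 lower at an adjusted p of 0.05 in DMSO libraries, with a median of 0.08. The 77 genes of the mitochondrial ribosome, which translates the mtDNA-encoded subunits, had 0 called and a median of 0.10. Of 24 genes of the TCA cycle and pyruvate entry, 24 were positive with a median of 0.31, 8 were higher at an adjusted p of 0.05 and 2 were called, Mpc1, part of the pyruvate carrier, and Pdk4, a kinase that inhibits pyruvate dehydrogenase, at 1.74 and 1.78. Of 14 carriers and channels, with a median of 0.54, 10 were higher at an adjusted p of 0.05, 3 were called higher and 1 lower, with Timm23, a pore of the protein import machinery, at 2.58 and 88.4% of its words shared, and Ucp2, an uncoupling protein, at 1.57 with none shared. Among 18 biogenesis regulators, 1 was called higher and 1 lower, Ppargc1b at 1.22 ± 0.27 with an adjusted p of 0.00641 and Pprc1 at -1.04 ± 0.18 with an adjusted p of 0.00112, both of them coactivators of the PGC-1 family. Of the 9 related subunits outside the name rule, with a median of 0.52, 6 were higher at an adjusted p of 0.05 and 3 were called higher: Cycs, cytochrome c, at 2.76, Higd1a, a complex IV factor that responds to low oxygen, at 1.46 and Usmg5, a small ATP synthase subunit, at 1.13. Their shared words were 26.1%, 6.07% and 34.7%.

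The mtDNA-encoded subunits did not give a full picture of their side of the complexes. Of 13 genes, 8 could be tested, 0 were called in either age comparison, and 1 was higher at an adjusted p of 0.05 in each. CYTB and ND1, with no shared word, were at 1625 to 4000 and 992 to 2579 RPM, whereas COX2, COX3, ATP6 and ND4L, each with over 98% of their words shared with other annotated genes, were at most 0.209 RPM in any library. ATP8, whose sequence overlaps ATP6 in the mitochondrial genome, was at most 0.0485 RPM. With CompE at P0, 0 of the genes on these lists were called by edgeR. Mpc1 was at 1.31 ± 0.23 with an adjusted p of 0.0119 and Slc25a13, an aspartate-glutamate carrier, at -0.84 ± 0.19 with an adjusted p of 0.0395.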

How the data were processed

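The authors prepared libraries with the SMART-Seq v4 PLUS kit from sorted cells and sequenced them on an Illumina NextSeq instrument. Per the labels, reads were trimmed with Trim Galore 0.6.0 and cutadapt 1.15 and aligned to mm10 with STAR 2.7.0f. The deposited values are raw counts per gene, in 1 table for each age. Strand and multimapping settings are not given in the sources used here, and for 23 members an exon overlaps a gene on the other strand, among them Uqcrc2, Cox4i1, Cox5a and Ndufs3. RPM and RPKM were computed from the counts. Genes were tested with edgeR 4.0.16 (R 4.3.3; TMM scaling, quasi-likelihood test, Benjamini-Hochberg adjustment over all genes), with CompE and DMSO compared within each age and the ages in 1 fit over 14 libraries; the age fit joins 2 tables. DESeq2 1.42.0, a replicate block, other scalings and leaving out libraries were alternatives. Deviations of same-numbered libraries, which shared a batch per the labels, correlated at 0.144 to 0.456 at P0 and 0.251 to 0.605 at P6. Nothing says that libraries came from separate litters, so p-values measure the spread between these libraries, and reads without molecular identifiers are not independent molecules. Scripts were tested on simulated data. Named members were those called, those with the highest and lowest mean or log2 fold change of each complex, and subunit isoforms. Members, lists, motifs and the split by shared words were chosen with earlier results of these data known.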

Additional observations from a re-analysis of the deposited data

Results flagged for a closer look

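In 2 of 88 groups of 4 libraries examined, 1 library lay far from the other 3, and chance flags about 5% of groups. Ndufa1 was at 64.7 RPM in the P0 CompE library of replicate 2, with the others at 55.8 to 56.9 RPM. Sdhb was at 183 RPM in the P0 DMSO library of replicate 1, with the others at 117 to 126 RPM.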

How the results depend on the processing

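At P0, the count of members called with CompE was 0. It became 1 (Cox4i2) with DESeq2, with the replicate block, with a batch block and without both libraries of replicate 1. It was also 1 under an adjusted p of 0.05 at any fold, and 2 with the replicate block at that looser threshold. In the last of these settings 723 of 15937 genes were lower. Leaving out 1 library gave 0 to 1. The split by shared words, the block with the looser threshold and RPM divided by the TMM factor were chosen after seeing the data. For age, the counts of 5 (DMSO) and 4 (CompE) became 40 and 40 under that looser threshold and 1 and 0 over members with no shared word, which holds fewer genes. Leaving out 1 library gave 4 to 5 and 3 to 5. Atp5h fell to 1.00 without the P6 DMSO library of replicate 2, and to 0.95 in CompE libraries with library totals alone, under 2-fold in both cases. The ratio of summed member levels between ages was 1.37 (DMSO) and 1.45 (CompE) with TMM library sizes, against 1.30 and 1.32. The median of the interaction was -0.01 with library totals alone and -0.03 to 0.12 leaving out 1 library. The cause of these changes was not tested. The replicate block called no member at P6 (0 of 76). Libraries held 23972228 to 41207627 counted reads at P6 and 19415066 to 44430063 at P0, and what limits the P6 comparison was not tested.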
